A study of Mus musculus with 10 samples.

Results

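The dual-specificity MAPK phosphatases are enzymes that switch off mitogen-activated protein kinases (MAPKs), and 10 of their genes are described here: Dusp1, Dusp2, Dusp4, Dusp5, Dusp6, Dusp7, Dusp8, Dusp10, Dusp14 and Dusp16. They are family members acting on MAPKs, chosen with earlier results of these data known, and Dusp9, another such enzyme, is not among them. Each of the 10 was found as 1 row among the 20206 genes of the expression table. RNA had been sequenced from 10 embryonic stem cell (ESC) lines, which are cultures grown from the inner cells of the blastocyst. The lines were wild-type C57Bl/6 and labelled male. Of these, 5 came from embryos whose mothers ate a low protein diet (LPD, 9% casein) and 5 from embryos whose mothers ate a normal protein diet (NPD, 18% casein), with the same calories, from mating until the blastocysts were collected. The diet was given to the mother and all lines were then cultured alike, so the comparison asks what differs in cultured cells several passages after the diet ended. According to the study's methods, each line had a different mother, so p-values measure the spread between lines of separate mothers. Each line was 1 library, named here by its diet and number: LPD lines 1, 4, 6, 20 and 40 and NPD lines 8, 15, 21, 36 and 51.

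MAPKs pass signals from growth factors and stress to the nucleus once they carry phosphate on a threonine and a tyrosine of their activation loop. Dual-specificity phosphatases remove both phosphates. Many of their genes are themselves induced by MAPK signalling, so that the signal limits itself. In mouse ESCs, signalling through the MAPK ERK, driven by FGF4, moves cells out of the self-renewing state, and the level of phosphatases that act on ERK is part of that balance. The family is usually sorted by where the enzyme works and which kinase it prefers: inducible nuclear enzymes (Dusp1, Dusp2, Dusp4, Dusp5), cytoplasmic enzymes selective for ERK (Dusp6, Dusp7), enzymes selective for the stress kinases JNK and p38 (Dusp8, Dusp10, Dusp16) and small atypical enzymes without a kinase-binding domain (Dusp14).

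The libraries were not equally deep. Depth was expressed in read equivalents, found by dividing a line's summed values by what 1 read was worth there. The NPD lines held 20323968 to 23175589 and the LPD lines 5855277 to 24241414, with LPD line 4 the shallowest and LPD lines 6 and 40 at 12319746 and 11237400. Pluripotency markers were high in every line, with a summed normalized value of 72200 to 90800 over 10 genes and none at 0. Y-linked genes went against the male label in a pair of lines: the sum of 4 of them was 702 in LPD line 4 and 152 in NPD line 15, against 3706 to 4305 in the other 8 lines. The summed value of 12 markers of the fibroblasts used as feeders was 582 to 3912 in LPD and 633 to 6443 in NPD, highest in NPD line 15 and LPD line 6. Up to 5 of these 12 markers were at 0 in an LPD line and up to 2 in an NPD line. All 9 markers of primitive endoderm, the extraembryonic layer next to the inner cells of the blastocyst, had a positive log2 fold change in LPD, with a median of 0.49 and 0 of 9 at an unadjusted p under 0.05 by limma. Their summed value was 3501 to 21790 in LPD and 2235 to 16140 in NPD, with 1 marker at 0 in an NPD line, and their part in the results on the phosphatases was not tested. Nothing here separates a change in all cells from a change in the share of a few cells, since these are bulk cultures.

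Of the 10 phosphatase transcripts, 9 had a higher mean in LPD lines and Dusp7 had a lower one. By limma on log2(value + 1), 8 of the 10 differed at an unadjusted p under 0.05, 7 of them higher and 1 lower in LPD. Among the 14354 genes tested, 5.02% lay under the same p, 2.84% higher and 2.18% lower in LPD. Since the members were chosen with earlier results of these data known, this contrast is not independent evidence. The median log2 fold change of the 10 was 0.75, against 0.00 over all genes tested. No phosphatase, and no gene at all (0%), passed an adjusted p under 0.1 over all genes tested, with 721 genes at an unadjusted p under 0.05 by limma and 516 by an exact Mann-Whitney test, which also called 0 genes after adjustment. All differences below are therefore nominal: the smallest adjusted p of the 10 was 0.388 (limma, Benjamini-Hochberg), with a range over the alternatives of 0.0087 to 0.999 for Dusp8. Without LPD line 40, 40 genes passed an adjusted p under 0.1, among them Dusp5 (8.4e-04), Dusp8 (0.00867), Dusp7 (0.0508) and Dusp1 (0.0942). For each of these members line 40 was the LPD line nearest to the NPD lines or among them. Leaving it out therefore widens their difference by itself. With any other single line left out, 0 or 1 gene and 0 members passed. After scaling every library to 1 common total, 40.2% of all genes at an unadjusted p under 0.05 were higher in LPD, against 56.6% as deposited, while 7 phosphatases remained higher and 1 lower at that p.

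**Figure D1:**
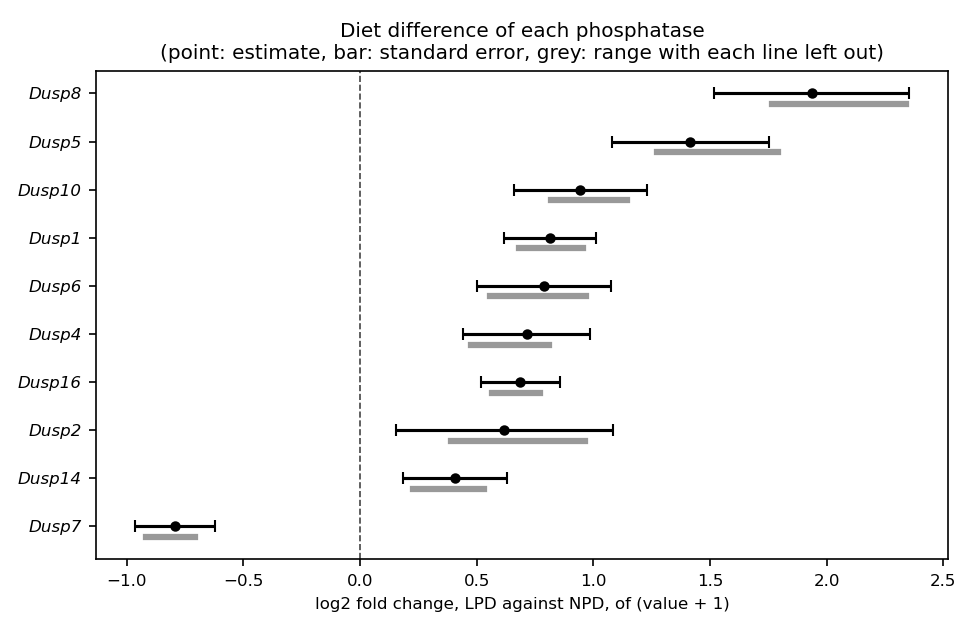
Log2 fold change of each phosphatase, LPD against NPD, on the log2(value + 1) scale (horizontal axis), with the gene on the vertical axis; points are limma estimates from 5 and 5 lines, bars their standard errors, and grey bars the range with each line left out in turn. Dusp8 lies farthest to the right at 1.94, Dusp7 is the only point left of 0 at -0.79, and none of the grey bars crosses 0.

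The inducible nuclear enzymes include Dusp1, Dusp4 and Dusp5, which were all higher in LPD at an unadjusted p under 0.05, and Dusp2, which was not. Dusp1 (chromosome 17, 26505590 to 26562128 on GRCm38) acts on JNK, p38 and ERK and is among the first genes switched on by growth factors and stress. Its normalized value was 2041, 2303, 1604, 1522 and 1136 in LPD lines 1, 4, 6, 20 and 40, and 1123, 859, 1166, 657 and 1042 in NPD lines 8, 15, 21, 36 and 51. Every LPD line except line 40 lay above every NPD line, and line 40 lay among the upper NPD lines. The means were 1721 ± 457 in LPD and 969 ± 211 in NPD (SD, n = 5 each), a log2 fold change of 0.82 (standard error 0.20, unadjusted p = 0.0013 by limma, adjusted p = 0.44, exact permutation test p = 0.0159).

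Dusp5 (chromosome 19, 53529109 to 53542431) is selective for ERK and holds it in the nucleus. Its value was 1264, 1632, 1847, 1871 and 446 in LPD lines 1, 4, 6, 20 and 40, and 599, 421, 347, 496 and 539 in NPD lines 8, 15, 21, 36 and 51. LPD lines 1, 4, 6 and 20 were each more than any NPD line, and LPD line 40 fell inside the NPD range. The means were 1412 ± 592 and 480 ± 98.8 (SD, n = 5 each), with a log2 fold change of 1.42 (standard error 0.34, unadjusted p = 0.0011 by limma, adjusted p = 0.44, exact permutation test p = 0.0317), and an exact Mann-Whitney test gave p = 0.0556.

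Dusp4 (chromosome 8, 34807297 to 34819894) acts on ERK and JNK in the nucleus. Its value was 791, 761.4, 900 and 810 in LPD lines 1, 4, 6 and 40 and 1868 in LPD line 20, against 761.0, 345, 493, 704 and 753 in NPD lines 8, 15, 21, 36 and 51. The LPD lines all exceeded the NPD lines, but LPD line 4 and NPD line 8 were within 1 unit of each other, and LPD line 20 stood apart from the rest. The log2 fold change was 0.72 (standard error 0.27, unadjusted p = 0.021 by limma, adjusted p = 0.90, exact permutation test p = 0.00794, the smallest that 5 against 5 lines allow). Without NPD line 15 it was 0.53 with an unadjusted p of 0.0556, and without LPD line 20 it was 0.48 with an unadjusted p of 0.048.

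Dusp2 (chromosome 2, 127336159 to 127338376), known best from activated immune cells, was the lowest of the 10. It had values of 18.4, 5.55, 12.1, 31.3 and 26.0 in LPD lines 1, 4, 6, 20 and 40 and 12.4, 8.78, 5.82, 13.3 and 12.3 in NPD lines 8, 15, 21, 36 and 51, which rest on 2 to 41 read equivalents. The diets overlapped, with LPD line 4 below every NPD line. The log2 fold change was 0.62 (standard error 0.46, unadjusted p = 0.21 by limma, exact permutation test p = 0.254), within the spread between lines, with an SD of log2 values of 0.92 in LPD and 0.45 in NPD. The fold change was 0.96 with an unadjusted p of 0.0325 when LPD line 4, the shallowest library, was left out.

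Of the cytoplasmic ERK-selective enzymes, Dusp6 was higher and Dusp7 lower in LPD. Dusp6 (chromosome 10, 99263231 to 99267489) is the classic feedback phosphatase of the FGF and ERK pathway. Its value was 2189, 3156, 2630, 5237 and 1666 in LPD lines 1, 4, 6, 20 and 40, and 2061, 1096, 1138, 1822 and 2195 in NPD lines 8, 15, 21, 36 and 51. LPD lines 4, 6 and 20 lay above all NPD lines, while LPD lines 1 and 40 lay within the NPD range. The means were 2976 ± 1378 and 1662 ± 516 (SD, n = 5 each), a log2 fold change of 0.79 (standard error 0.29, unadjusted p = 0.016 by limma, adjusted p = 0.86, exact permutation test p = 0.0714). Leaving out LPD line 4 and NPD line 15, whose Y-linked genes went against the label, gave 0.60 with an unadjusted p of 0.083.

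Dusp7 (chromosome 9, 106368632 to 106375724), which shares the location and kinase preference of Dusp6, was the only 1 of the 10 members lower in LPD. Its value was 174, 142, 184, 161 and 254 in LPD lines 1, 4, 6, 20 and 40, and 389, 266, 298, 280 and 341 in NPD lines 8, 15, 21, 36 and 51. All LPD lines lay below all NPD lines, with LPD line 40 the nearest to them. The means were 183 ± 42.8 and 315 ± 50.4 (SD, n = 5 each), a log2 fold change of -0.79 (standard error 0.17, unadjusted p = 5.1e-04 by limma, adjusted p = 0.39, exact permutation test p = 0.00794). The log2 ratio of Dusp6 to Dusp7 within a line, picked after both values had been seen and so given with no test, was 3.93 ± 0.87 in LPD and 2.35 ± 0.36 in NPD (SD, n = 5 each). The lowest ratio of the LPD lines, 2.71 in line 40, lay next to the highest NPD ratio of 2.70.

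**Figure D2:**
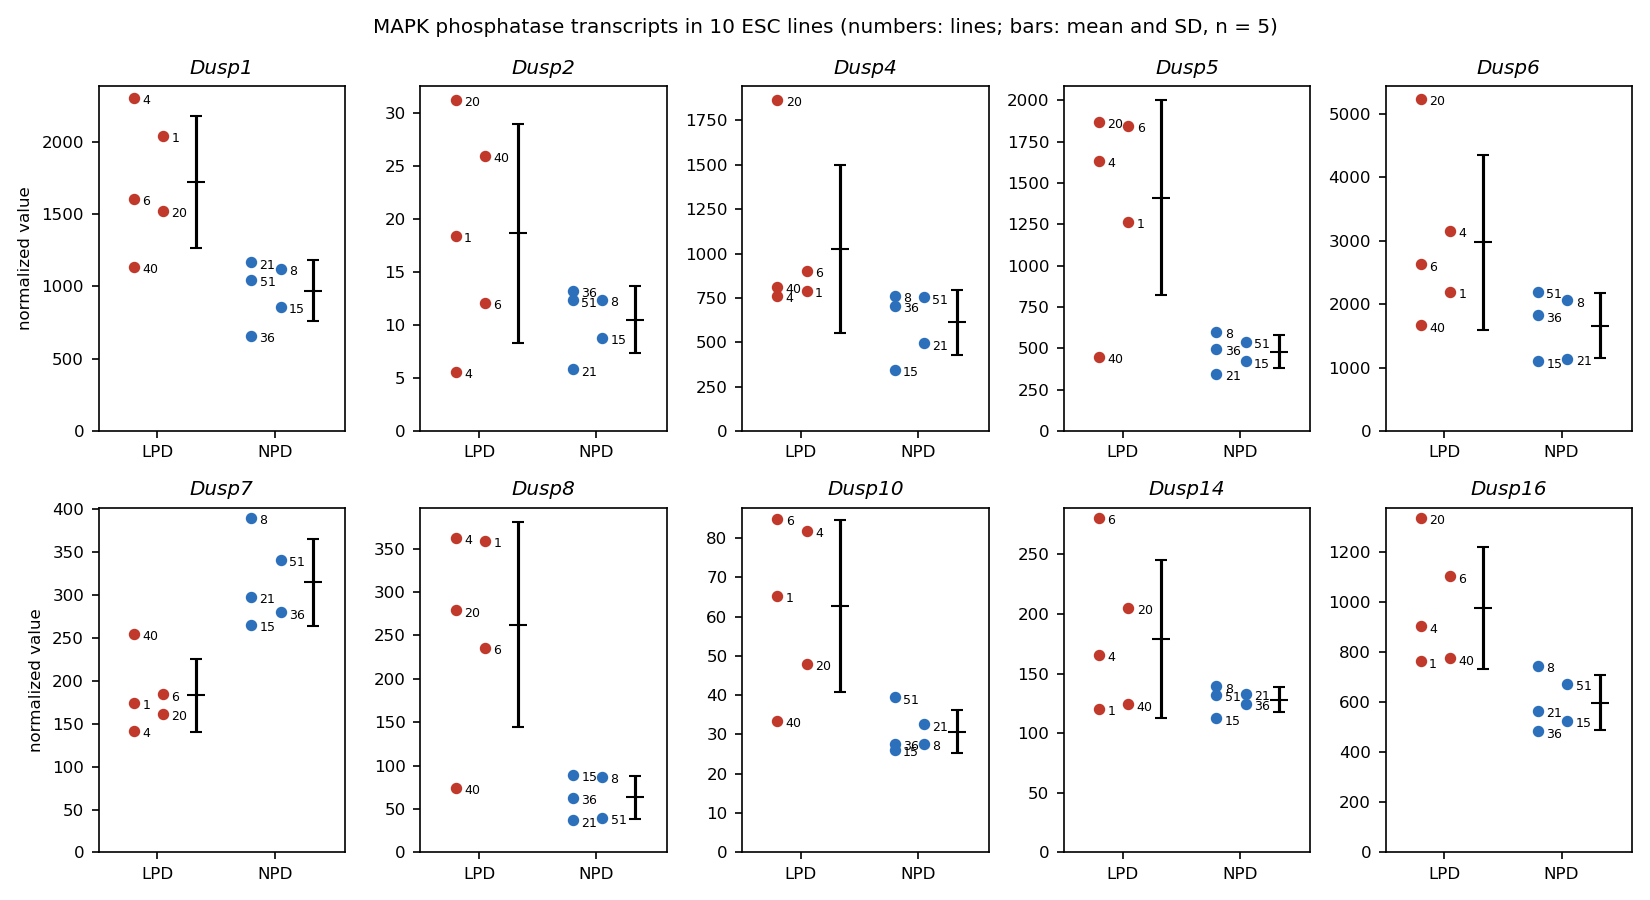
Normalized value of each of the 10 phosphatase transcripts (vertical axis, starting at 0, with its own scale in each panel) in the LPD and NPD lines (horizontal axis); each point is 1 line with its number, and the bar to the right is the mean and SD of 5 lines. LPD line 40 is the lowest LPD line in Dusp1, Dusp5, Dusp6, Dusp8 and Dusp10, LPD line 20 is the highest line in Dusp2, Dusp4, Dusp5, Dusp6 and Dusp16, and Dusp7 is the panel in which the LPD points lie below the NPD points.

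All 3 enzymes selective for JNK and p38 were higher in LPD at an unadjusted p under 0.05. Dusp8 (chromosome 7, 142079490 to 142095843) was 1 of a pair of members, with Dusp14, that the study picked from these same lines, so its direction is not independent evidence. Its value was 359, 362, 236, 279 and 74.3 in LPD lines 1, 4, 6, 20 and 40, and 87.2, 89.4, 36.8, 63.0 and 40.2 in NPD lines 8, 15, 21, 36 and 51. LPD lines 1, 4, 6 and 20 all exceeded the NPD lines, whereas LPD line 40 lay between them. The log2 fold change was 1.94 (standard error 0.42, unadjusted p = 4.9e-04 by limma, adjusted p = 0.39, exact permutation test p = 0.0238). Leaving out LPD line 40 gave 2.34. In read equivalents, Dusp8 was measured on 47 to 472 per line.

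Dusp10 (chromosome 1, 184013302 to 184075636) had values of 65.3, 81.8, 84.8, 48.0 and 33.5 in LPD lines 1, 4, 6, 20 and 40, and 27.6, 26.1, 32.6, 27.6 and 39.5 in NPD lines 8, 15, 21, 36 and 51. LPD lines 1, 4, 6 and 20 lay above all NPD lines and LPD line 40 did not. The log2 fold change was 0.94 (standard error 0.29, unadjusted p = 0.0060 by limma, adjusted p = 0.68, exact permutation test p = 0.0159).

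Dusp16 (chromosome 6, 134715468 to 134792625) restrains JNK in particular. Its value was 763, 903, 1103, 1336 and 775 in LPD lines 1, 4, 6, 20 and 40, and 746, 526, 565, 484 and 674 in NPD lines 8, 15, 21, 36 and 51. The lowest LPD line exceeded the highest NPD line. The means were 976 ± 243 and 599 ± 108 (SD, n = 5 each), a log2 fold change of 0.69 (standard error 0.17, unadjusted p = 0.0015 by limma, adjusted p = 0.45, exact permutation test p = 0.00794), which stayed between 0.57 and 0.77 with each line left out.

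Dusp14 (chromosome 11, 84048041 to 84069261), a small atypical enzyme and the other member the study picked, had no difference past an unadjusted p of 0.05 in its gene total. Its value was 120, 165, 281, 205 and 124 in LPD lines 1, 4, 6, 20 and 40, and 139, 112, 133, 124 and 132 in NPD lines 8, 15, 21, 36 and 51. LPD lines 4, 6 and 20 were above all NPD lines and LPD lines 1 and 40 were within them. The log2 fold change was 0.41 (standard error 0.22, unadjusted p = 0.090 by limma, exact permutation test p = 0.135). Its size fell to 0.23 (unadjusted p = 0.25) when LPD line 6 was left out, the line with the highest value, where markers of feeder fibroblasts summed to 3912 and those of trophectoderm to 10410, against 3135 to 6382 for trophectoderm markers in the other lines. It was 0.53 (unadjusted p = 0.033) without LPD line 1 and 0.52 (unadjusted p = 0.039) without LPD line 40. The part of these markers in the result was not tested.

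In all, 2 members, Dusp4 and Dusp16, had every LPD line above every NPD line and 1, Dusp7, had every LPD line below, against 0.523% and 0.495% of all genes tested. The margin of Dusp4 was within 1 unit, and the count of 3 fell to 1 (Dusp7) under scaling to a common total, against 0.39% of all genes above and 0.738% below, and to 1 (Dusp16) after quantile normalization, against 0.467% and 0.655%. Without LPD line 40 it rose to 7, with Dusp1, Dusp5, Dusp8 and Dusp10 added, against 1.51% of all genes above and 1.21% below. In each of those added, line 40 was the only LPD line not above every NPD line. Leaving it out therefore removes the overlap by itself. With any other single line left out the count was 3 or 4.

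The qRT-PCR primers the study used for the members it picked show what was amplified apart from the gene totals given here. They were placed on GENCODE M21 transcripts (GRCm38), in coding sequence in each case, and are written 5′ to 3′.
Dusp8 forward, chr7:142083655-142083674: gagccgtttcatgcgtatcc
Dusp8 reverse, chr7:142083359-142083378: caatgacttggcagctggac
Dusp14 forward, chr11:84048915-84048934: gccgacaagatccacagtgt
Dusp14 reverse, chr11:84048844-84048863: caatacagagggtggccgag
The Dusp8 pair spans exons 5 and 6 of Dusp8-201 and yields 116 bases from that transcript only, since the reverse primer does not match Dusp8-202. The Dusp14 pair, listed for transcript Dusp14-205, lies in 1 exon and yields 91 bases from 4 of the 5 annotated transcripts, Dusp14-201, Dusp14-202, Dusp14-203 and Dusp14-205. The deposited value is 1 per gene, so the transcripts of Dusp14 cannot be told apart in it. The study reported Dusp8 and Dusp14 as higher in LPD by sequencing and by qRT-PCR. Its test of single transcripts listed Dusp8-201 under a false discovery rate of 0.1, but no transcript of Dusp14. The limma fit here was on gene totals, where neither passed an adjusted p under 0.1. Single transcripts were not tested here.

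Levels of the 10 members were compared per kilobase of the longest coding transcript. Dusp9, an ERK phosphatase outside the 10 with a mean value of 4817, is not in this order or in the sums. Dusp6 had the highest mean, 829 units per kilobase over the 10 lines, followed by Dusp1 (676), Dusp5 (383), Dusp4 (299), Dusp16 (154), Dusp14 (97.8), Dusp7 (77.4), Dusp8 (33.9), Dusp10 (16.7) and Dusp2 (9.02). Dusp1 lay above Dusp5, Dusp4 above Dusp16 and Dusp16 above Dusp14 in all 10 lines. Dusp6 lay above Dusp1 in only 6 lines, Dusp5 above Dusp4 in 5 and Dusp14 above Dusp7 in 4, so the order of these neighbours was not fixed. The sum over the 10 phosphatases was 2998, 3659, 3361, 4613 and 1996 units per kilobase in LPD lines 1, 4, 6, 20 and 40, and 2213, 1410, 1624, 1731 and 2153 in NPD lines 8, 15, 21, 36 and 51. LPD line 40 thus lay inside the NPD range of 1410 to 2213. Dusp6 made up 31.1 ± 5.62% of the sum in LPD and 32.0 ± 5.46% in NPD, and Dusp1 27.0 ± 6.96% and 27.1 ± 6.47% (SD, n = 5 each). Dusp5 made up 16.5 ± 4.77% in LPD and 10.7 ± 1.35% in NPD, and Dusp7 1.95 ± 1.17% and 5.40 ± 0.41% (SD, n = 5 each).

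All 10 members had a larger SD of log2 values over the LPD lines than over the NPD lines, against 66.8% of all genes tested. For Dusp14 the SD was 0.51 in LPD and 0.12 in NPD, and for Dusp5 0.87 and 0.31. The count changed with the lines kept. LPD line 20 was the highest LPD line for 5 members and LPD line 40 the lowest for 5. Leaving these lines out therefore narrows the LPD spread of those members by itself. It was 6 of 10 without LPD line 40, against 61% of all genes, and 7 of 10 without LPD line 20, against 62.4%. Without both it was 3 of 10, against 52.8%. Without LPD lines 4, 6 and 40, the 3 libraries of lower depth, it was 7 of 10, against 50.6%. Only LPD lines 1 and 20 were left in that diet there. Depth and line-to-line variation of the LPD group cannot be told apart in that count.

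The LPD lines did not share 1 profile. LPD line 20 was the highest of the 10 lines for Dusp2, Dusp4, Dusp5, Dusp6 and Dusp16, LPD line 4 for Dusp1 and Dusp8, LPD line 6 for Dusp10 and Dusp14, and NPD line 8 for Dusp7. LPD line 40 was the lowest LPD line for 5 members, and NPD line 15 the lowest of the 10 lines for 4. On the log2 scale Dusp8 in LPD line 40 lay 0.65 below its mean over the 10 lines, while the other LPD lines lay 1.01 to 1.62 above it. Mean deviations of the 28 immediate early genes, transcripts switched on within minutes of signalling, were 1.24, 1.34, 0.48, 0.30 and -0.64 in LPD lines 1, 4, 6, 20 and 40 and between -0.71 and -0.35 in the NPD lines. Mean deviations of the 9 ERK feedback genes were highest in LPD line 20, at 0.63, and between -0.26 and 0.11 in the other lines.

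**Figure D3:**
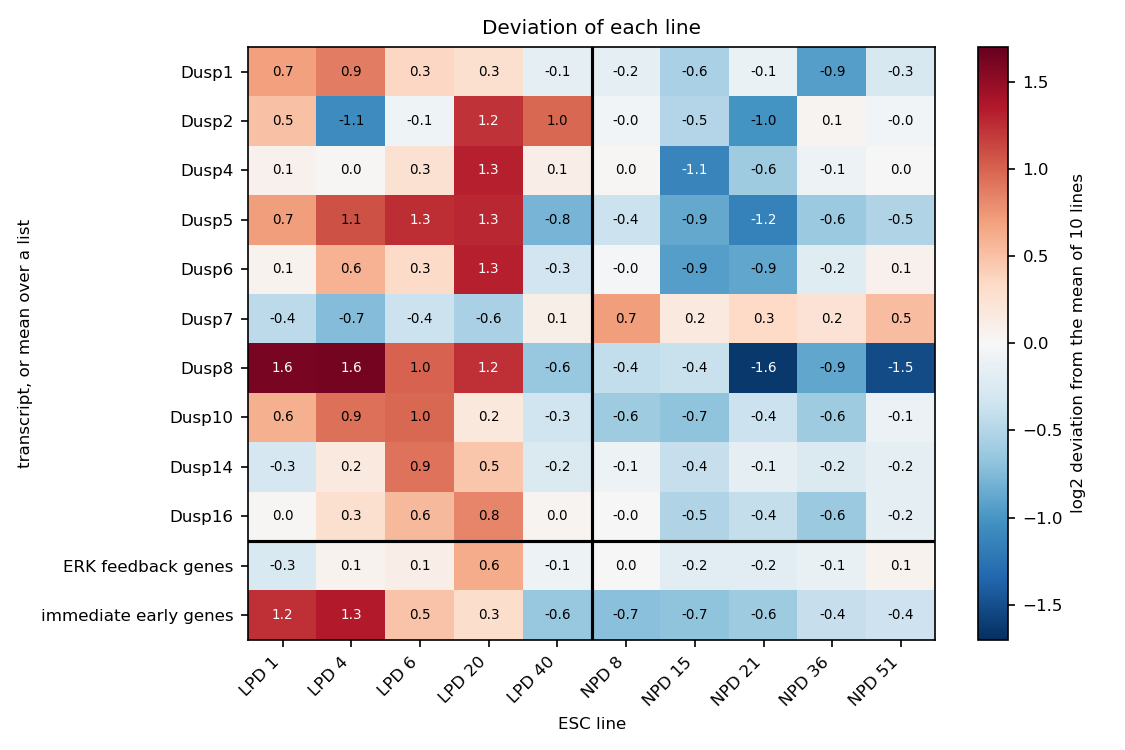
Log2 deviation of each line from the mean of the 10 lines (colour and printed number, red above and blue below) for the 10 phosphatase transcripts and, under the horizontal line, the mean of the ERK feedback genes and of the immediate early genes; columns are the lines, LPD left of the vertical line. LPD line 20 has deviations of 1.3 in Dusp4, Dusp5 and Dusp6, LPD lines 1 and 4 of 1.6 in Dusp8, and LPD line 40 is below 0 in Dusp1, Dusp5, Dusp6, Dusp8, Dusp10 and Dusp14.

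Lines were then compared within diets, using the deviation of each line from the mean of its own diet. Of 20 relations between a member and a list, 3 had an adjusted p under 0.05 by Pearson r and 2 by Spearman rho. All were with the ERK feedback genes, which are the Sprouty and Spred inhibitors of the pathway and the factors Etv1, Etv4 and Etv5. Dusp16 had Pearson r = 0.87 and Spearman rho = 0.90 over the 10 lines (exact permutation test within diets, p = 0.0019 and 0.0037, adjusted p = 0.034 and 0.037). Dusp6 had r = 0.85 and rho = 0.89 (exact permutation test, p = 0.0060 and 0.0035, adjusted p = 0.040 and 0.037). Dusp4 had r = 0.82 and rho = 0.78 (exact permutation test, p = 0.0034 and 0.01, adjusted p = 0.034 and 0.05). LPD line 20 was high in all 3, and without it and the next farthest line r was 0.79 for Dusp16, 0.73 for Dusp6 and 0.72 for Dusp4. Without LPD line 4 and NPD line 15 r was 0.86, 0.88 and 0.93 for Dusp16, Dusp6 and Dusp4, with adjusted p of 0.121, 0.127 and 0.0694 from the exact permutation test on 8 lines. By rank, Dusp5 and Dusp14 lay as high as Dusp4 over the 10 lines, each at rho = 0.81 (exact permutation test p = 0.0092 and 0.020, adjusted p = 0.05 and 0.079). Their r was lower, at 0.53 and 0.60.

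None of the relations with the immediate early genes passed adjustment. The largest were for Dusp10 (r = 0.79, rho = 0.78, exact permutation test p = 0.056 and 0.052, adjusted p = 0.168 and 0.174) and Dusp8 (r = 0.71, rho = 0.43, exact permutation test p = 0.057 and 0.31, adjusted p = 0.168 and 0.613). The value for Dusp8 rested on LPD line 40 and NPD line 21, since r was 0.25 without them. Dusp7 moved against the list, at r = -0.695 and rho = -0.43 (exact permutation test p = 0.059 and 0.275, adjusted p = 0.168 and 0.611). Its r was -0.23 without LPD line 40 and NPD line 8. For Dusp1, r was 0.68 and rho 0.64 (exact permutation test p = 0.039 and 0.087, adjusted p = 0.168 and 0.248).

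**Figure D4:**
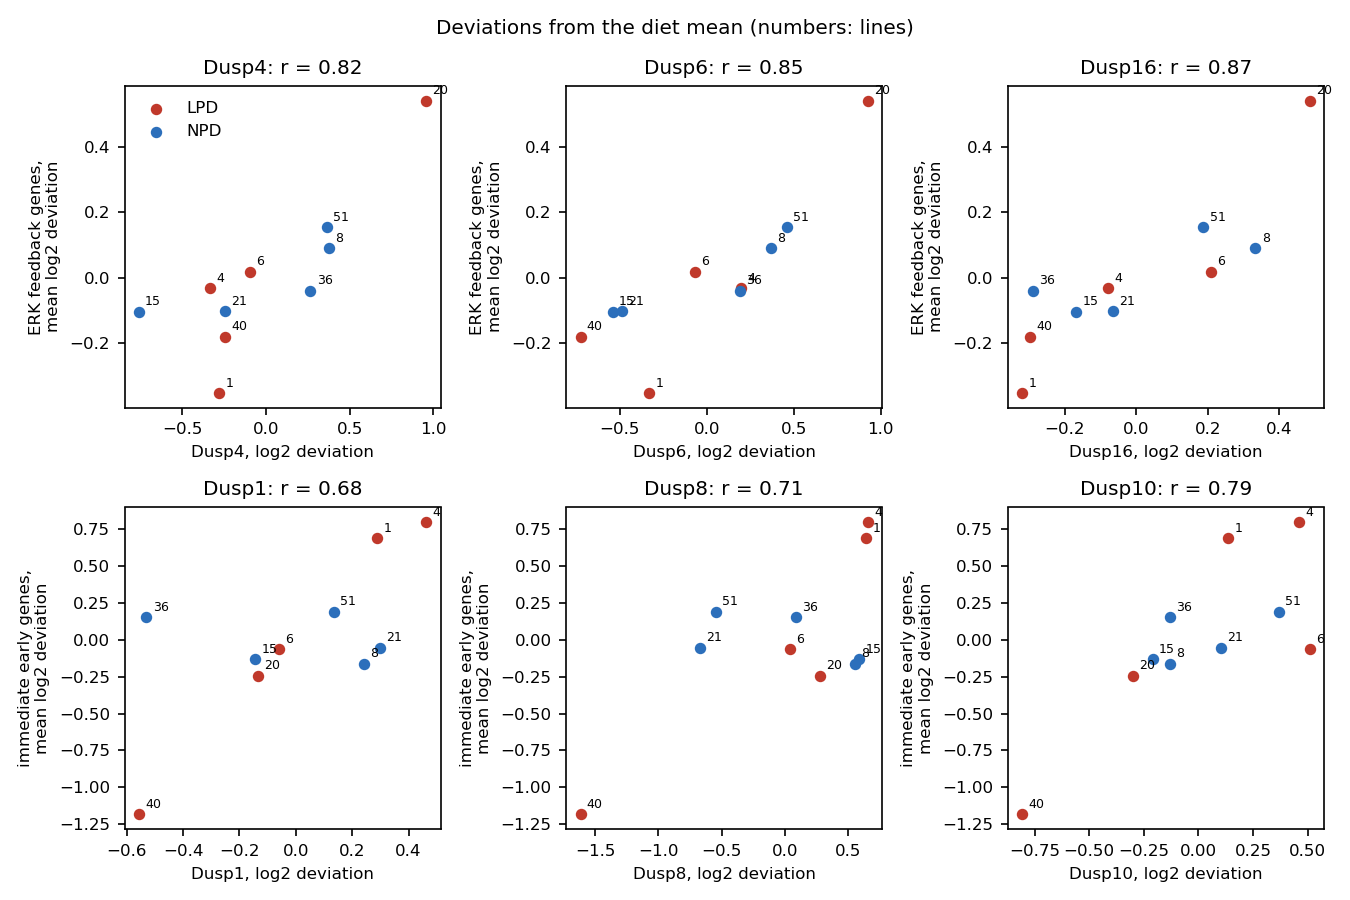
Log2 deviation of a phosphatase from the mean of its diet (horizontal axes) against the mean log2 deviation of the ERK feedback genes (upper row) or the immediate early genes (lower row) on the vertical axes; each point is 1 line with its number, red for LPD and blue for NPD. In the upper row r is 0.82, 0.85 and 0.87 for Dusp4, Dusp6 and Dusp16 with LPD line 20 at the upper right, and in the lower row r is 0.68, 0.71 and 0.79 for Dusp1, Dusp8 and Dusp10 with LPD line 40 at the lower left.

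Among the 45 pairs of members, 0 had an adjusted p under 0.05 by Pearson r or by Spearman rho, and 6 had an unadjusted exact permutation p under 0.05 by r. By Pearson r the highest pair was Dusp4 with Dusp6 (r = 0.86, rho = 0.73, exact permutation test p = 0.0092 and 0.026, adjusted p = 0.31 and 0.25), for which r was 0.74 without LPD line 20 and NPD line 15. By Spearman rho it was Dusp14 with Dusp16, with r = 0.74 and rho = 0.92 (exact permutation test p = 0.034 and 0.0033, adjusted p = 0.31 and 0.080), with r = 0.82 without LPD lines 1 and 6. Dusp5 with Dusp6 had r = 0.76 and rho = 0.82 (exact permutation test p = 0.024 and 0.0035, adjusted p = 0.31 and 0.080). Dusp7 and Dusp8 moved against each other at r = -0.64 (exact permutation test p = 0.097, adjusted p = 0.40).

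**Figure D5:**
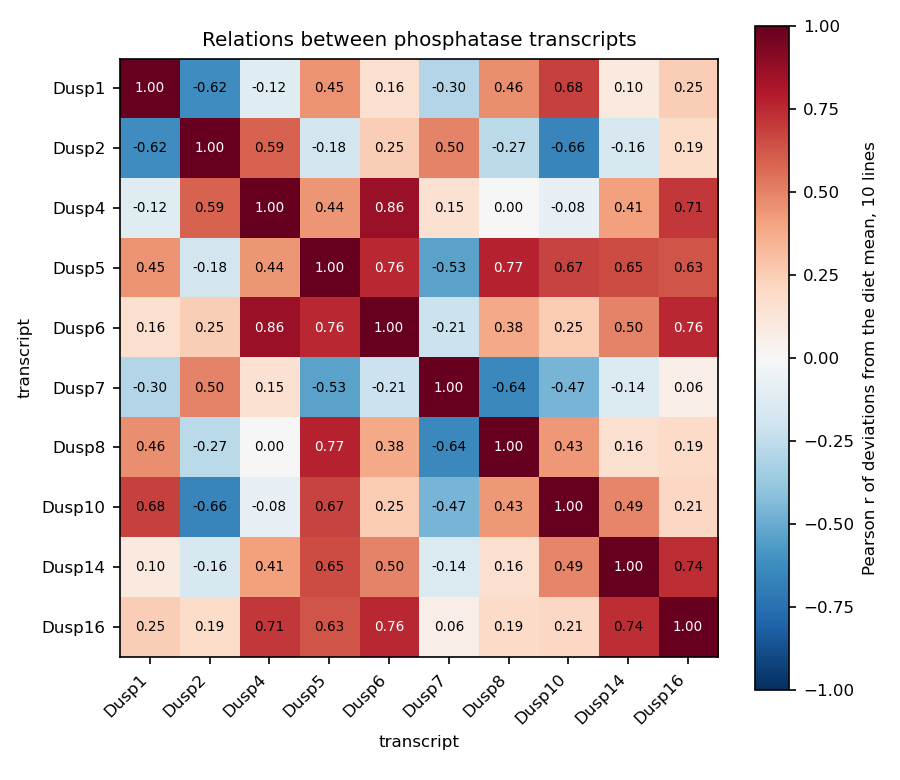
Pearson r of log2 deviations from the diet mean over 10 lines for each pair of the 10 phosphatase transcripts, named on both axes (red for r above 0, blue below, the diagonal is 1). Dusp6 has r of 0.86 with Dusp4, 0.76 with Dusp5 and 0.76 with Dusp16, while Dusp7 and Dusp8 have -0.64.

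Other genes of the pathway were taken from lists drawn up with earlier results of these data known. The members were chosen in the same way, so the counts here are no independent contrast with theirs. Of 21 other dual-specificity phosphatases in the table, 17 passed the filter on low values, and of these 0 had an unadjusted p under 0.05 by limma, with a median log2 fold change of -0.09. The highest of them by level, Dusp9, an X-linked ERK phosphatase of ESCs, had 4531 ± 424 in LPD and 5102 ± 1438 in NPD (SD, n = 5 each; log2 fold change -0.13, standard error 0.16, unadjusted p = 0.41). Its highest value, 7348, was in NPD line 15. Of 14 MAP kinases, 7 MAP kinase kinases and 9 other phosphatases acting on MAPKs, none differed at an unadjusted p under 0.05. Map2k1, which encodes the kinase MEK1 upstream of ERK, was at 2224 ± 280 in LPD and 2437 ± 192 in NPD (SD, n = 5 each).

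Among genes that respond to the pathway, 2 of 9 ERK feedback genes were higher in LPD at an unadjusted p under 0.05, and 0 lower. Over all genes tested, 2.84% were higher and 2.18% lower at that p by limma. The log2 fold change of Spry4 was 0.82 (standard error 0.24, unadjusted p = 0.0049, adjusted p = 0.67, exact permutation test p = 0.0317) with values of 2124, 3794, 3447, 5159 and 2090 in LPD lines 1, 4, 6, 20 and 40. That of Spry2 was 0.32 (standard error 0.11, unadjusted p = 0.015). Etv5, the most abundant, had 6051 ± 449 in LPD and 6003 ± 678 in NPD (SD, n = 5 each). Of 28 immediate early genes, 16 were higher at an unadjusted p under 0.05 and 0 lower, with a median log2 fold change of 0.92. The study had reported some of them, Maff, Jund and Klf6 included, as higher in these same lines, so the count is not independent evidence. Maff, a small MAF factor, differed by 1.56 on the log2 scale (standard error 0.25, unadjusted p = 3.2e-05, adjusted p = 0.23), the AP-1 subunit Jund 0.46 (standard error 0.08, unadjusted p = 8.2e-05) and the stress factor Atf3 2.03 (standard error 0.38, unadjusted p = 1.4e-04). In each of these 3, the diets did not overlap. Klf4, the most abundant of the list, was at 4728 ± 618 and 4743 ± 429 (SD, n = 5 each).

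Sequence upstream of the members was read from RefSeq promoters (GRCm38.p6, 250 bases before to 50 after the annotated start), which had an entry for 9 of the 10 members. It was searched on both strands for AP-1 (TGANTCA), the cAMP response element (CRE, TGACGTCA) and its short form (TGACG), ETS (CCGGAAG) and the CArG box to which serum response factor binds. Each full CRE also holds the short form on both strands. The full CRE was found in Dusp1 and Dusp8, or 2 of 9 members, against 1.79% of the 32817 promoters, and the CArG box in Dusp5, against 1.63%. The short form was in 5 of 9 members, against 20.8% of promoters. AP-1 and ETS letters were in 0 of 9, against 7.81% and 8.86% of promoters. The letters G and C made up 57.3% to 78.7% of the member promoters, against a median of 52.67% over all promoters. The shares were not matched for this, and its part in them was not tested. The promoters of Dusp6, Dusp7, Dusp10 and Dusp14 held none of these motifs. Any relation of the motifs to the diet differences was not tested. The stretches that hold the full CRE and the CArG box are given with the motif in capitals, 5′ to 3′ on the strand of the gene.
Dusp1, chr17:26508598-26508625, minus strand: gtagggcgggTGACGTCAccgcccggtc
Dusp8, chr7:142095374-142095401, minus strand: cccgctccgcTGACGTCAcctgcccccg
Dusp8, chr7:142095330-142095357, minus strand: tggctgcaggTGACGTCAggggcttttt
Dusp5, chr19:53529053-53529082, plus strand: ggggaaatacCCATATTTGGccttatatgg
Dusp5, chr19:53529063-53529092, plus strand: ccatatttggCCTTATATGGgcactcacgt
The CRE of Dusp1 lies at -143 to -136 from the start, those of Dusp8 at -107 to -100 and -63 to -56, and the CArG boxes of Dusp5 at -82 to -73 and -72 to -63, side by side. The Dusp1 and Dusp8 stretches fall in an intron of transcripts Dusp1-205 and Dusp8-202, which start further upstream, and the Dusp5 stretches lie outside annotated transcripts of the gene. A match of letters is a description, and binding was not measured.

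For likeness, genes with a mean of at least 100 were ranked by Pearson r of deviations from the diet mean over the 10 lines, among 10455 genes. The genes most like Dusp6 were Spred2 (r = 0.97), Foxh1 (0.97) and Rbm12 (0.96). Those most like Dusp8 were Dcun1d3 (0.98), Tut7 (0.98) and Kctd20 (0.96), and those most like Dusp14 were Strn3 (0.98), Dvl3 (0.96) and Hbegf (0.94). Of these, Hbegf, a growth factor of the EGF family, had a log2 fold change of 1.21 between the diets (unadjusted p = 0.0025 by limma), and Spred2, an inhibitor of the ERK pathway, -0.02 (unadjusted p = 0.91). For the other members with a mean of at least 100, the highest r was 0.97, for Dusp4. With 10 lines and this many genes, high values of r are given as description only.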

How the data were processed

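RNA of 10 ESC lines was sequenced, 5 LPD and 5 NPD, with groups taken from the sample labels. Per the paper and labels, the authors trimmed adaptors (cutadapt), quantified transcripts with Salmon on GRCm38 and tested transcripts with sleuth 0.30.0. The authors deposited 1 normalized signal for each gene and line, and the name of the table refers to DESeq2. How transcripts were combined into genes is not given in the sources used here. Low values were whole multiples of 1 read (tolerance 0.15) for only 68.2% to 74.1% of values over all genes, so no count model was used, and the columns without a mapped line were 0.

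Values were taken as log2(value + 1), which understates changes of low genes. Genes averaging 10 or more, 14354 in all, were fitted with limma 3.58.1 (R 4.3.3; trend, no covariate), with Benjamini-Hochberg adjustment over all of them. Exact permutation tests were two-sided, over the 252 assignments of 5 and 5 lines (smallest p 0.00794) or, for relations, the 14400 reorderings within diets, adjusted over the 45 pairs or 20 list relations. The members and lists were chosen with earlier results of these data known. Named genes were the 10 members and, from each pathway list, up to 3 with the smallest p under 0.05 and the most abundant, and 1 gene under this rule is not reported here. For likeness, the 3 genes with the highest r were named for Dusp6, Dusp8 and Dusp14. The tests were checked on simulated data. Alternatives were pseudocounts of 0.1, 0.5 and 10, other filters, scalings and limma settings, a Mann-Whitney test, depth as a covariate and lines left out. Leaving out LPD lines 4, 6 and 40 together was chosen after seeing the data. Gene positions are from GENCODE M21, of which 19891 of 20206 genes were matched.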

Additional observations from a re-analysis of the deposited data

Results flagged for a closer look

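In groups of 5 lines, the highest or lowest value was compared with its neighbour, and 3 member values stood apart by more than 0.71 of the group's range on the log2 scale. Chance alone does so in about 1 in 20 groups, and 20 groups were looked at. Dusp4 in LPD line 20 was the highest of the LPD lines at 1868, with the next at 900. Dusp5 in LPD line 40 was the lowest of the LPD lines at 446, with the next at 1264. Dusp8 in LPD line 40 was the lowest of the LPD lines at 74.3, with the next at 236. LPD line 40 is 1 of the 3 LPD libraries of lower depth, at 11237400 read equivalents, and in it Dusp8 rested on 47 and Dusp5 on 282 read equivalents. LPD line 20 was the deepest library. The part of depth in these values was not tested.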

How the results depend on the processing

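Among 238 alternative results of single members none changed direction, and 229 stayed on the same side of an unadjusted p of 0.05. The Mann-Whitney test, the other filters, and limma without a trend or with robust variance leave the fold change itself as it is. Direction could not change in those. With array weights, the count of genes past an adjusted p under 0.1 went from 0 to 1. It was 6 without LPD lines 4, 6 and 40 together and 40 without LPD line 40. With any other single line left out it was 0 or 1. For the members that count was 1 (Dusp5) without LPD lines 4, 6 and 40 together. It was 4 without LPD line 40 and 0 with any other single line left out. Members at an unadjusted p under 0.05 numbered 6 by the exact Mann-Whitney test, where Dusp5 and Dusp6 missed it, and 7 to 9 otherwise. Over all genes tested, 516 lay under that p by the Mann-Whitney test and 549 to 1021 otherwise. Dusp2 and Dusp10 were not tested under the filter at a mean of 100. Members without overlap went from 3 to 1 when rescaled to the same total and to 1 after quantile normalization. Without LPD lines 4, 6 and 40 there were 8, where the shares of all genes were 4.35% above and 4.72% below. Their number was 7 without LPD line 40 and 3 or 4 with any other single line left out. Relations with a pathway list under an adjusted p of 0.05 by Pearson r went from 3 to 1 (Dusp16) after quantile normalization. When rescaled to the same total there were 2, with Dusp4 at an adjusted p of 0.0528 (exact permutation test). Their number was 0 without LPD line 4 and NPD line 15 and 0 without LPD lines 4, 6 and 40, where fewer lines allow fewer reorderings. Dusp2 passed an unadjusted p of 0.05 with depth as a covariate, without LPD line 4 and without LPD lines 4, 6 and 40. Causes were not tested. Dusp2 had the fewest reads, with 2 read equivalents in LPD line 4. No paired analysis was possible because the labels give the diets no shared line numbers.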
